A study of Mus musculus with 8 samples.

Results

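The nuclear-encoded subunits of the mitochondrial respiratory chain were measured by RNA-seq of polyA-enriched RNA in E14 mouse embryonic stem cells (ESCs). They were taken from the deposited table by gene symbol, as the Nduf genes of subunits, Sdha to Sdhd, and the Uqcr, Cox4 to Cox8 and Atp5 genes, without symbols of pseudogenes. The rule found 83 of 50902 genes: 37 of complex I, 4 of complex II, 8 of complex III, 18 of complex IV and 16 of complex V. Both groups were grown in N2B27 medium with LIF and 2i, carried a siRNA-resistant BAZ2A transgene with Flag and HA tags brought in by PiggyBac transposase, and were collected 3 days after transfection of siRNA against Baz2a. In BAZ2A_wt (4 libraries) the transgene was wild-type, and in BAZ2A_dTAM (4 libraries) it lacked the TAM domain, which binds RNA. The lines were isolated as single-cell clones, so clone and transgene cannot be told apart. The sources used here do not say whether the replicates came from separate cultures, and p-values then measure the spread between these libraries only.

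The respiratory chain passes electrons from NADH (complex I) and succinate (complex II) through ubiquinone, complex III and cytochrome c to oxygen at complex IV, and complex V makes ATP from the proton gradient that results. Most subunits are encoded in the nucleus and imported, and those of complexes I, III, IV and V assemble with subunits made from the mitochondrial genome. Mouse ESCs in 2i use both oxidative phosphorylation and glycolysis.

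The values are RPKM over the genomic span of each gene, introns included, so levels of different genes were compared only after division by exon length. Reads recovered from the RPKM numbered 7281271 to 7714168 on genes in BAZ2A_wt and 6585593 to 8696304 in BAZ2A_dTAM. Baz2a itself had 9.95 to 11.2 RPKM in BAZ2A_wt and 17.0 to 18.9 RPKM in BAZ2A_dTAM. These values sum the siRNA target and the transgene, so they do not check the deletion. Baz2a was higher in BAZ2A_dTAM by 0.79 ± 0.046 on the log2 scale (SE, limma adjusted p = 3.39e-05). The level of Baz2a transcript and the deletion cannot be told apart. All 8 ESC markers of the list were above the expression filter (a mean of at least 0.1 RPKM), and 4 of them were lower in BAZ2A_dTAM, Sox2 (-0.42), Klf4 (-0.39), Dppa5a (-0.28) and Esrrb (-0.20) on the log2 scale, and none higher, where 16.0% of all genes tested were lower and 19.9% higher. The median over the 8 was -0.13. Their summed level was 364 to 374 RPKM in BAZ2A_wt and 296 to 323 RPKM in BAZ2A_dTAM, and its part in the results was not tested. No fibroblast, endoderm or primed marker passed the filter, with Col3a1, Dcn, Lum and Fgf5 listed at 0. Of the neural and the mesoderm markers, 1 of 4 each passed it (Tubb3 and T), and neither was called. BAZ2A_wt replicate 4 stood apart from the other BAZ2A_wt libraries in these genes. It was the lowest of the 4 in 55 of the 75 subunit genes tested and the highest in none, against 35.0% and 23.5% of all genes tested. BAZ2A_dTAM replicate 1 was the lowest of its group in 41 of the 75, against 33.7% of all genes.

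Promoters are shown for 5 of the 20 genes called below, 3 lower and 2 higher in BAZ2A_dTAM, to show which letters known from genes of respiration lie at their start. The 5 were picked from the called genes and do not stand for the others. The call of Uqcrh was lost in 6 of 8 fits with a library left out. They are RefSeq sequences of GRCm38.p6, the 150 bases before the transcription start, 5′ to 3′ on the gene's strand, which is the minus strand for all 5. The windows are chr13:74350241-74350390 (Sdha), chr2:90904722-90904871 (Ndufs3), chr17:83514334-83514483 (Cox7a2l), chr4:116075071-116075220 (Uqcrh) and chr5:108434400-108434549 (Atp5k). Capitals mark matches, on either strand, to a core motif of NRF1 (10 letters, 1 of them free), of the ETS factors, among them GABPA (CCGGAAG), or of YY1 (11 letters).

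Sdha: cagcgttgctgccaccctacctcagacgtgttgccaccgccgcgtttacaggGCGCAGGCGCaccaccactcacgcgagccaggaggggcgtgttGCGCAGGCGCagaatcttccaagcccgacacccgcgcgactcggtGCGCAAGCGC
Ndufs3: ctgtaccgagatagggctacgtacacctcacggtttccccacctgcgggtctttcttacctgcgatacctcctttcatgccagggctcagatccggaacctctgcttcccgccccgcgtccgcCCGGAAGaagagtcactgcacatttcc
Cox7a2l: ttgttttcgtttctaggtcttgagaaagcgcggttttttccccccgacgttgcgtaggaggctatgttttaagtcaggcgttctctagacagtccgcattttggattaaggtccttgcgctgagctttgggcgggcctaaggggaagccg
Uqcrh: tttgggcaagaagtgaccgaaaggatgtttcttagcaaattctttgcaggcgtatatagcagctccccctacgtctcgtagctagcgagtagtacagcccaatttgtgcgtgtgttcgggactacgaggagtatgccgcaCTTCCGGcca
Atp5k: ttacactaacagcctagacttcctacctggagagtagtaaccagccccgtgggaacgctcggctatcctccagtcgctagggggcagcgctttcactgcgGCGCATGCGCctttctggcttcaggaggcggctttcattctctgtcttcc

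The Sdha window held the NRF1 letters in 3 places, the Atp5k window once, and the Ndufs3 and Uqcrh windows held the ETS letters once each. The Cox7a2l window held none of them. Of the 83 subunit genes, 68 were matched to a RefSeq promoter, here from 250 bases before to 50 after the start. The NRF1 letters were in 17 of the 68 (25%) against 7.17% of the promoters of 17492 protein-coding genes. The ETS letters were in 16 (23.5%) against 12.9%, and the YY1 letters in 4 (5.88%) against 1.06%. The last 3 letters of the ETS core are the first 3 of the YY1 core, so their matches can overlap. Among the 16 matched genes that were lower in BAZ2A_dTAM, 2 held the NRF1, 3 the ETS and 2 the YY1 letters. Among the 3 that were higher, 1 held the NRF1 and 3 the ETS letters, and among the 45 that were not called, 13 held the NRF1 and 10 the ETS letters. A match is a description of the sequence and does not show binding.

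A smaller share of the subunit genes than of all genes was higher in BAZ2A_dTAM, while the share that was lower was above or near that of all genes, depending on the measure and the libraries. Of the 83 genes, 75 passed the filter and were tested. At an adjusted p under 0.05 (limma on log2(RPKM + 0.1), Benjamini-Hochberg adjustment over 9002 genes), 17 were lower (22.7%), where 16.0% of all genes tested were lower. Only 3 were higher (4.00%), where 19.9% of all genes were, a contrast that was not seen among genes with under 1 kb of exon (8.11% against 8.75%). By complex, 10 of 35 were lower in complex I, 2 of 4 in complex II, 1 of 8 in complex III, 3 of 13 in complex IV and 1 of 15 in complex V, and the 3 that rose were 1 of complex III and 2 of complex V. The changes were small: the median log2 fold change over the 75 was -0.071, where that of all genes tested was 0.011, and the estimates ran from -0.33 (Sdha) to 0.36 (Atp5l). Estimates were below 0 for 51 of the 75, against 47.2% of all genes. The study's own thresholds were 0.58 for the size of the log2 fold change and 0.05 for the unadjusted p. In the limma fit on log2(RPKM + 0.1), no subunit gene was past them in either direction. Of all genes tested in that fit, 2.34% were past them upwards and 1.47% downwards. That scale understates changes of low genes, and the paper reports many more genes past its thresholds than this fit found. The absence of subunit genes is thus a result of this fit and does not give the paper's own outcome for them. At an unadjusted p under 0.05 without the fold threshold, 25 of the 75 passed, where 45.9% of all genes did, and voom put 1 gene, Atp5l, past both thresholds upwards. Every BAZ2A_dTAM library was below every BAZ2A_wt library for 12 of the 75, a share like the 16.7% of all genes, and above for 2 (20.5% of all genes), Atp5k and Ndufs1, the latter not called. In bulk samples, fewer cells of a type and less RNA per cell cannot be told apart.

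The number of calls depended on single libraries, and the direction of the 20 genes called did not change in any alternative run. Lower calls numbered 10 of 75 (13.3%) without BAZ2A_wt replicate 1 or 2 or BAZ2A_dTAM replicate 3 or 4, where 12.6% to 13.6% of all genes were lower in the same fits. They numbered 11 without BAZ2A_wt replicate 3 (13.2% of all genes), 12 without BAZ2A_dTAM replicate 1 (14.9%), 16 without BAZ2A_dTAM replicate 2 (14.2%) and 21 without BAZ2A_wt replicate 4 (15.4%). Higher calls numbered 2 or 3 in each of the 8 fits, where 16.1% to 19.1% of all genes were higher. In all 8 fits with a library left out, 10 of the 20 were called: Ndufa10, Ndufb9, Ndufs3, Ndufs4, Sdha, Cox6b2, Cox7a2l, Cox7b, Atp5k and Atp5l. With the replicate number as a block, 13 of the 20 were called, and of these 10 all but Atp5l (adjusted p = 0.0644). With voom on the recovered reads, all 20 were called in the same direction, among 24 lower and 3 higher calls, where each direction held 21.8% of all genes tested by voom.

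**Figure D1:**
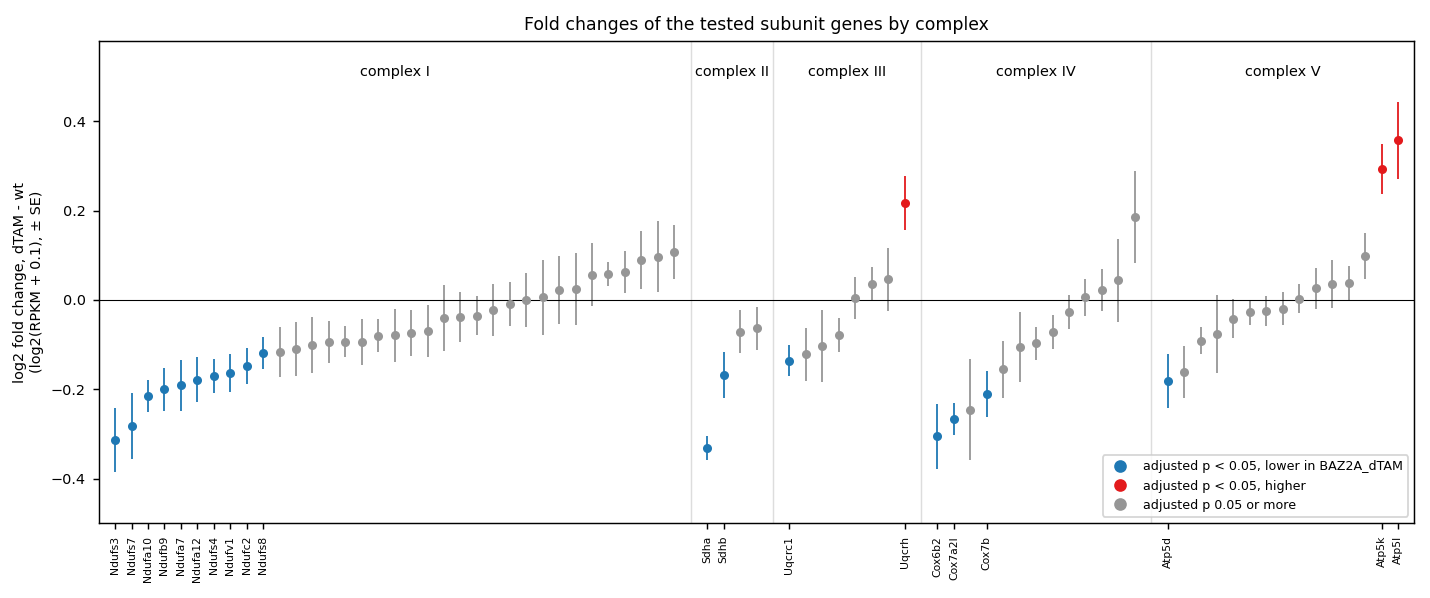
Log2 fold change of BAZ2A_dTAM against BAZ2A_wt (y axis, log2(RPKM + 0.1) scale, point and standard error, 4 libraries a group) of the 75 subunit genes tested, sorted within each complex, with the names of those called. The 17 genes lower at an adjusted p under 0.05 are blue, the 3 higher are red and the other 55 grey, and the estimates run from -0.33 (Sdha) to 0.36 (Atp5l).

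Complex I had 10 lower genes and no higher gene among the 35 tested, with a median log2 fold change of -0.079. Its catalytic core of 7 nuclear-encoded subunits, which carry electrons from NADH to ubiquinone, held 4 of the 10. Ndufs3, a core subunit of the peripheral arm at chr2:90894634-90904827 (mm10), had 0.835, 0.821, 0.739 and 0.677 RPKM in BAZ2A_wt and 0.564, 0.667, 0.587 and 0.573 RPKM in BAZ2A_dTAM. The groups did not overlap, although BAZ2A_wt replicate 4 and BAZ2A_dTAM replicate 2 lay close, and the log2 fold change was -0.31 ± 0.072 (SE, adjusted p = 0.0121). Of its exons, 88 bases overlap those of Kbtbd4 on the other strand, and whether reads were counted by strand is not stated.

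Ndufs7, whose iron-sulfur cluster passes the electrons to ubiquinone, lies at chr10:80249121-80256794 and had 1.15, 1.11, 1.16 and 0.947 RPKM in BAZ2A_wt and 0.897, 0.845, 0.968 and 0.806 RPKM in BAZ2A_dTAM. BAZ2A_wt replicate 4 was below BAZ2A_dTAM replicate 3, and the other BAZ2A_wt libraries were above all of BAZ2A_dTAM. The log2 fold change was -0.28 ± 0.074 (SE, adjusted p = 0.0206). Ndufv1, which binds NADH and its first electron acceptor FMN, had 4.97, 5.13, 5.43 and 4.95 RPKM in BAZ2A_wt and 4.59, 4.50, 4.33 and 4.82 RPKM in BAZ2A_dTAM, with no overlap between the groups and a log2 fold change of -0.16 ± 0.043 (SE, adjusted p = 0.0206). Ndufs8, another iron-sulfur subunit, had 3.25, 3.43, 3.27 and 3.08 RPKM in BAZ2A_wt and 3.04, 3.00, 3.03 and 2.88 RPKM in BAZ2A_dTAM, again without overlap, and a log2 fold change of -0.12 ± 0.036 (SE, adjusted p = 0.0341). Ndufv2, an iron-sulfur subunit beside Ndufv1, had an estimate of -0.093 (adjusted p = 0.199). Ndufs1, the largest iron-sulfur subunit, went the other way. It had 0.631, 0.635, 0.626 and 0.5999 RPKM in BAZ2A_wt and 0.636, 0.664, 0.663 and 0.647 RPKM in BAZ2A_dTAM, and every BAZ2A_dTAM library was above every BAZ2A_wt library, but by a log2 fold change of only 0.058 (adjusted p = 0.123). Its exons share 489 bases with the antisense gene Ino80dos. The medians were -0.12 over the 7 core and -0.055 over the 28 other subunits of complex I tested.

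The other 6 genes of complex I that fell encode accessory subunits, which surround the core. Ndufa10, a kinase-like subunit of the membrane arm at chr1:92439010-92473860, had 0.603, 0.639, 0.650 and 0.601 RPKM in BAZ2A_wt and 0.507, 0.529, 0.549 and 0.508 RPKM in BAZ2A_dTAM. Each BAZ2A_dTAM library was below each BAZ2A_wt library, with a log2 fold change of -0.21 ± 0.035 (SE, adjusted p = 0.00277). Ndufb9, an LYR-motif protein of the membrane arm, had 2.68, 2.81, 2.84 and 2.69 RPKM in BAZ2A_wt and 2.27, 2.37, 2.62 and 2.29 RPKM in BAZ2A_dTAM, also without overlap, and a log2 fold change of -0.20 ± 0.048 (SE, adjusted p = 0.0145). Of its exons, 201 bases overlap an annotated gene on the same strand, Gm49356.

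Ndufs4, a peripheral-arm subunit whose loss causes a Leigh-like disease in mice, had 0.164, 0.156, 0.159 and 0.156 RPKM in BAZ2A_wt and 0.119, 0.133, 0.139 and 0.128 RPKM in BAZ2A_dTAM. Here too the groups were apart, with a log2 fold change of -0.17 ± 0.038 (SE, adjusted p = 0.0108). As its span of introns is long and its RPKM is near the pseudocount, this scale understates the change: on recovered reads with voom it was -0.29 (SE 0.049). The same holds for Ndufa12, also of the peripheral arm, at -0.18 on the RPKM scale and -0.26 with voom. Ndufa7 and Ndufc2, accessory subunits of the peripheral and the membrane arm, had log2 fold changes of -0.19 ± 0.058 (SE, adjusted p = 0.0350) and -0.15 ± 0.040 (SE, adjusted p = 0.0237), and in both the lowest BAZ2A_wt library, replicate 4, was within the range of BAZ2A_dTAM. The adjusted p was above 0.05 in 6 of 8 fits for Ndufs8, Ndufa7 and Ndufc2, 5 of 8 for Ndufs7, 3 of 8 for Ndufa12 and 2 of 8 for Ndufv1 when a library was left out. For Ndufa7 and Ndufc2 these were all but those without BAZ2A_wt replicate 4 and without BAZ2A_dTAM replicate 2, and for Ndufs8 all but those without BAZ2A_wt replicate 4 or BAZ2A_dTAM replicate 1. For Ndufs7 they were those without BAZ2A_wt replicate 1, 2 or 3 or BAZ2A_dTAM replicate 2 or 4. For Ndufa12 they were those without BAZ2A_wt replicate 1 or BAZ2A_dTAM replicate 1 or 3, and for Ndufv1 those without BAZ2A_dTAM replicate 2 or 3. The 25 genes of complex I that were not called had estimates from -0.12 (Ndufb5) to 0.11 (Ndufa11), 16 of them below 0, with standard errors of 0.026 to 0.085. Ndufs5 and Ndufa4l2 were under the filter. Ndufs5 had only 2 to 9 reads a library, and near-identical copies could take up reads of such a gene, as the sources do not say how multi-mapping reads were handled.

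Complex II, succinate dehydrogenase, also belongs to the citric acid cycle and has no subunit from the mitochondrial genome. All 4 of its genes had estimates below 0 and 2 were called lower. Sdha, the flavoprotein that oxidises succinate, lies at chr13:74322254-74350280 and had 2.14, 2.07, 2.08 and 2.14 RPKM in BAZ2A_wt and 1.60, 1.69, 1.64 and 1.69 RPKM in BAZ2A_dTAM. The 2 ranges were far apart, with 2.11 ± 0.0395 RPKM (SD, n = 4) in BAZ2A_wt and 1.66 ± 0.0426 RPKM (SD, n = 4) in BAZ2A_dTAM. The log2 fold change was -0.33 ± 0.027 (SE, adjusted p = 1.12e-04), and it stayed between -0.34 and -0.32 with each library left out. On this scale it was the largest decrease among the subunit genes tested. Ndufs3 fell further with voom (-0.36, against -0.35 for Sdha) and by the ratio of mean RPKM. Sdhb, the iron-sulfur subunit that takes the electrons on, had 1.18, 1.23, 1.33 and 1.14 RPKM in BAZ2A_wt and 1.05, 1.14, 1.03 and 1.07 RPKM in BAZ2A_dTAM. BAZ2A_wt replicate 4 was below BAZ2A_dTAM replicate 2, and the log2 fold change was -0.17 ± 0.052 (SE, adjusted p = 0.0376). Its adjusted p was above 0.05 without BAZ2A_wt replicate 1, 2 or 3 or BAZ2A_dTAM replicate 1, 3 or 4. The membrane anchors Sdhc and Sdhd did not pass the test, at -0.071 (adjusted p = 0.298) and -0.064 (adjusted p = 0.335).

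The summed reads of complex II were the only ones of the 5 complexes whose ranges did not overlap between the groups. The 4 genes took 0.0828, 0.0825, 0.0847 and 0.0819% in BAZ2A_wt and 0.0686, 0.0724, 0.0712 and 0.0722% in BAZ2A_dTAM of the reads on genes. The mean was 0.0830 ± 0.00120% (SD, n = 4) in BAZ2A_wt and 0.0711 ± 0.00177% (SD, n = 4) in BAZ2A_dTAM. Sdha held 46.1 to 49.3% of these reads in BAZ2A_wt and 43.1 to 43.9% in BAZ2A_dTAM. Without it, a sum taken after the values were seen, the other 3 genes took 0.0416 to 0.0457% and 0.0384 to 0.0410%, so that BAZ2A_wt replicate 4 and BAZ2A_dTAM replicate 2 nearly met. Complex I took 0.280 to 0.306% and 0.272 to 0.282%, complex III 0.119 to 0.125% and 0.114 to 0.125%, in this order of groups. Complex IV took 0.188 to 0.207% and 0.180 to 0.194%, and complex V 0.5996 to 0.634% and 0.584 to 0.620%. In complexes I, III, IV and V the lowest BAZ2A_wt library, each time replicate 4, lay within the range of BAZ2A_dTAM. All 83 genes together took 1.33 ± 0.0392% and 1.25 ± 0.0321% (SD, n = 4 each).

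**Figure D2:**
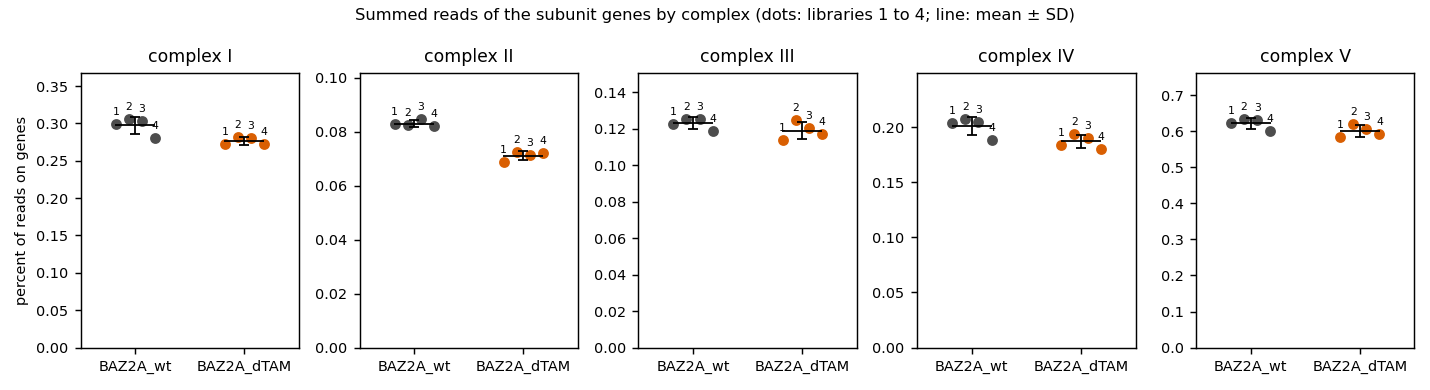
Percent of the reads on genes (y axis, from 0, a scale for each panel) that fell on the subunit genes of each complex, with a numbered dot for each of the 4 libraries a group and a line with bar for mean ± SD. The 2 groups are apart only in complex II, and BAZ2A_wt replicate 4 is the lowest of its group in all 5 panels.

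Complex III had 1 gene that fell and 1 that rose among its 8. Uqcrc1, a core protein of the matrix side at chr9:108936633-108949623, had 4.54, 4.598, 4.59 and 4.28 RPKM in BAZ2A_wt and 3.99, 4.28, 4.10 and 3.98 RPKM in BAZ2A_dTAM. BAZ2A_wt replicate 4 and BAZ2A_dTAM replicate 2 were equal to 3 digits and the other libraries were apart, and the log2 fold change was -0.14 ± 0.035 (SE, adjusted p = 0.0182). The call was lost without BAZ2A_wt replicate 2 or BAZ2A_dTAM replicate 4. Uqcrh, the acidic hinge protein at the docking site of cytochrome c, had 2.28, 2.23, 2.20 and 2.11 RPKM in BAZ2A_wt and 2.27, 2.78, 2.65 and 2.65 RPKM in BAZ2A_dTAM. Of the BAZ2A_dTAM libraries, 3 were above every BAZ2A_wt library and replicate 1 was within their range, with a log2 fold change of 0.22 ± 0.061 (SE, adjusted p = 0.0266). It was not called without BAZ2A_wt replicate 2, 3 or 4 or BAZ2A_dTAM replicate 2, 3 or 4. Uqcrh lies at chr4:116066965-116075071, and its 2 pseudogene entries had 0 to 2 reads a library. The second core protein Uqcrc2 and the Rieske iron-sulfur protein Uqcrfs1 had estimates of -0.078 (adjusted p = 0.152) and -0.12 (adjusted p = 0.145). The other 4 genes, all of small subunits, ran from -0.10 (Uqcrq) to 0.046 (Uqcr11).

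Complex IV, cytochrome c oxidase, has several subunits with alternative genes for different tissues. Of its 13 genes tested, 3 were lower. Cox6b2, known as the testis form of subunit 6B, lies at chr7:4751792-4753094 and had 7.96, 7.93, 7.10 and 7.23 RPKM in BAZ2A_wt and 6.90, 5.61, 5.69 and 6.23 RPKM in BAZ2A_dTAM. All BAZ2A_dTAM libraries were lower than all BAZ2A_wt libraries, with a log2 fold change of -0.31 ± 0.073 (SE, adjusted p = 0.0145). Its general form Cox6b1 had an estimate of -0.098 (adjusted p = 0.0738). It was called lower with voom (adjusted p = 0.0410), with median-ratio or quantile scaling and without BAZ2A_wt replicate 4 (adjusted p = 0.0326). Cox7a2l, which ties complexes III and IV into supercomplexes, lies at chr17:83501919-83514333 and had 1.26, 1.19, 1.27 and 1.196 RPKM in BAZ2A_wt and 0.973, 1.009, 1.06 and 0.976 RPKM in BAZ2A_dTAM. The groups were well apart, with 1.23 ± 0.0433 RPKM (SD, n = 4) in BAZ2A_wt and 1.004 ± 0.0387 RPKM (SD, n = 4) in BAZ2A_dTAM and a log2 fold change of -0.27 ± 0.036 (SE, adjusted p = 0.00110). Its relatives did not pass the test, at 0.021 (adjusted p = 0.757, below 0 with quantile normalization or without BAZ2A_dTAM replicate 2) for the general form Cox7a2 and 0.19 (adjusted p = 0.205) for Cox7a1, the form of heart and skeletal muscle.

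Cox7b, a small membrane subunit encoded on the X chromosome, had 4.66, 4.36, 4.55 and 4.04 RPKM in BAZ2A_wt and 3.69, 3.89, 3.96 and 3.59 RPKM in BAZ2A_dTAM. Again the groups did not overlap, and the log2 fold change was -0.21 ± 0.051 (SE, adjusted p = 0.0154). Cox4i1, which binds ATP and is the general form of subunit 4, was measured at -0.072 (adjusted p = 0.176). Cox6a1, the general form of subunit 6A, was measured at -0.16 (adjusted p = 0.0977), and it was called lower with voom (adjusted p = 0.0135) and without BAZ2A_wt replicate 4 (adjusted p = 0.0160). The 10 genes not called ran from -0.25 (Cox5b, standard error 0.11) to 0.19 (Cox7a1), 6 of them below 0. Cox5b, whose protein binds zinc, was called lower with voom (adjusted p = 0.00895) and without BAZ2A_dTAM replicate 2 (adjusted p = 0.0425).

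**Figure D3:**
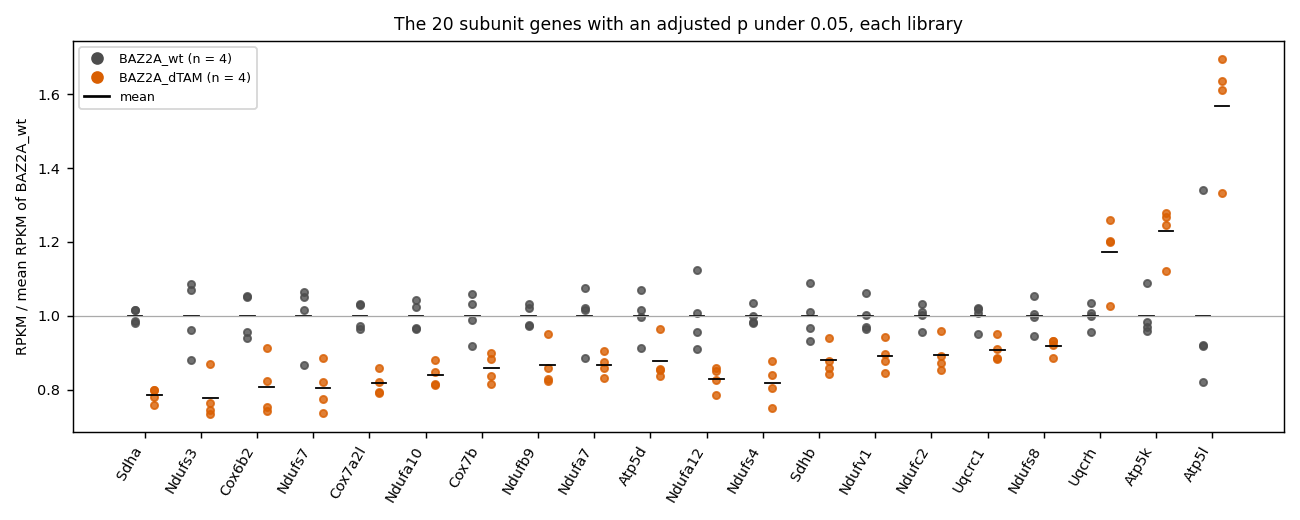
RPKM of each library divided by the mean of BAZ2A_wt (y axis) for the 20 subunit genes with an adjusted p under 0.05, sorted by log2 fold change, with a dot for each of the 4 libraries a group and a line for the mean. The groups do not overlap for 13 of the 20, a count among genes selected by these same values. Over all genes tested, BAZ2A_dTAM lies wholly below for 16.7% and wholly above for 20.5%. Among the genes that fell the mean of BAZ2A_dTAM is lowest, relative to BAZ2A_wt, for Ndufs3 (0.778 times) and Sdha (0.785 times).

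Complex V, the ATP synthase, had the 2 largest increases, and both genes encode small membrane subunits where synthases pair into dimers. Atp5k, subunit e, lies at chr5:108433244-108434448 and had 7.13, 7.32, 8.10 and 7.23 RPKM in BAZ2A_wt and 8.36, 9.44, 9.52 and 9.27 RPKM in BAZ2A_dTAM. All BAZ2A_dTAM libraries were above all BAZ2A_wt libraries, with 7.45 ± 0.443 RPKM (SD, n = 4) in BAZ2A_wt and 9.15 ± 0.535 RPKM (SD, n = 4) in BAZ2A_dTAM and a log2 fold change of 0.29 ± 0.055 (SE, adjusted p = 0.00510). Atp5l, subunit g, had 0.128, 0.0783, 0.0878 and 0.0876 RPKM in BAZ2A_wt and 0.127, 0.162, 0.156 and 0.154 RPKM in BAZ2A_dTAM. BAZ2A_wt replicate 1 was level with BAZ2A_dTAM replicate 1 and the other libraries were apart, with a log2 fold change of 0.36 ± 0.086 (SE, adjusted p = 0.0149). These values rest on only 33 to 73 reads a library, and Atp5l has near-identical pseudogenes, of which the 3 in the table had 0 to 2 reads. Its exons also share 133 bases with Gm30934 on the other strand, so its level and change are uncertain. On recovered reads with voom its log2 fold change was 0.67 (SE 0.17).

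Atp5d, the delta subunit of the central stalk, was the 1 gene of complex V that fell. It had 3.47, 3.66, 3.41 and 3.12 RPKM in BAZ2A_wt and 2.85, 3.29, 2.92 and 2.92 RPKM in BAZ2A_dTAM, with BAZ2A_wt replicate 4 below BAZ2A_dTAM replicate 2, and a log2 fold change of -0.18 ± 0.060 (SE, adjusted p = 0.0487). The call was lost without BAZ2A_wt replicate 1, 2 or 3 or BAZ2A_dTAM replicate 1, 3 or 4. Atp5b, the catalytic beta subunit and the most abundant transcript of the 83, had 56.0, 57.0, 55.3 and 53.8 RPKM in BAZ2A_wt and 50.4, 54.5, 52.5 and 51.0 RPKM in BAZ2A_dTAM. BAZ2A_wt replicate 4 lay below BAZ2A_dTAM replicate 2, and the log2 fold change of -0.091 ± 0.031 (SE, adjusted p = 0.0532) did not pass the test. It was called lower with voom (adjusted p = 0.00622), with a filter at 1 RPKM, with median-ratio scaling, without BAZ2A_wt replicate 4 and without BAZ2A_dTAM replicate 2. Atp5a1, the alpha subunit beside it in the catalytic ring, had an estimate of 0.0021 with a 95% interval from -0.074 to 0.078, and the estimate was below 0 with median-ratio or quantile scaling and without BAZ2A_wt replicate 2 or 4 or BAZ2A_dTAM replicate 2 or 4. Atp5f1, the b subunit of the peripheral stalk, was measured at -0.16 (adjusted p = 0.0618), and it was called lower with voom (adjusted p = 0.00483), with a filter at 1 RPKM, with median-ratio or quantile scaling and without BAZ2A_wt replicate 4 (adjusted p = 0.0193). Its exons share 337 bases with Wdr77 on the other strand. Those of Atp5d share 68 bases with Cbarp, also on the other strand. Atp5f1 was chosen after its value was seen, as 1 of 5 genes with an unadjusted p under 0.05 that were not called. Subunit c, the ring that turns in the membrane, comes from 3 genes with the same mature protein, and none passed the test: Atp5g1 at -0.028, Atp5g2 at -0.075 and Atp5g3 at 0.026, the last below 0 with quantile normalization. The 12 genes of complex V not called ran from -0.16 (Atp5f1) to 0.098 (Atp5e), 7 of them below 0. Atp5s, which modulates the synthase and is not a fixed subunit, was under the filter. It had 0.0867, 0.0778, 0.0812 and 0.0904 RPKM in BAZ2A_wt and 0.0696, 0.0625, 0.0676 and 0.0515 RPKM in BAZ2A_dTAM, without overlap between the groups, and with voom a log2 fold change of -0.44 (SE 0.13, adjusted p = 0.00970).

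Per exon length, as reads per kilobase of exon scaled to the reads on genes in each library, the tested genes ranged from 3.19 ± 0.387 (Ndufb2) to 1381 ± 29.4 (Atp5b). These and the next levels are means of BAZ2A_wt ± SD over 4 libraries. Atp5b was followed by Atp5g3 at 500.0 ± 20.8, Atp5a1 at 469.7 ± 12.1 and Cox4i1 at 437 ± 21.4. Atp5g3 and Atp5a1 differed by less than the sum of their SDs, and so did Atp5a1 and Cox4i1. The highest of complex I was Ndufa7 at 340.4 ± 26.5, that of complex III Uqcr10 at 273 ± 5.74, and that of complex II Sdha at 136 ± 2.90, close to Sdhb at 128 ± 8.45. Complex II's lowest was Sdhc at 49.9 ± 3.11, and complex III's was Uqcrq at 50.5 ± 5.45. Ndufs5 and Atp5l, which encode fixed subunits, were measured at only 0.695 ± 0.265 and 9.61 ± 2.22. Near-identical copies could take up reads of such genes, which was not tested. Exon length here is the union of all annotated exons, so the level of a gene with long annotated isoforms, such as Atp5g1 (4912 bases) and Ndufb2 (4375 bases), can be too low.

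Among alternative genes the general forms prevailed in both lines. On the same scale Cox4i1 stood at 437 ± 21.4 against 2.02 ± 0.143 for Cox4i2, known as the form of lung and of cells short of oxygen. Cox6a1 stood at 355 ± 30.5 against 0.290 ± 0.248 for the muscle form Cox6a2, and Cox8a at 309 ± 26.3 against 0.0935 ± 0.187 for Cox8b and 0.0708 ± 0.142 for Cox8c. Cox7b stood at 199 ± 11.9 against 0.859 ± 0.5004 for Cox7b2, and Ndufa4, which is found in complex IV although named for complex I, at 306 ± 23.7 against 0.995 ± 0.799 for Ndufa4l2. By the naming rule, all counts, medians and sums by complex hold Ndufa4 and Ndufa4l2 under complex I. The weak forms rested on few reads: 6 to 13 for Cox4i2, 0 to 5 for Cox6a2, 1 to 11 for Cox7b2, 0 to 1 for Cox8b, 0 to 2 for Cox8c and 0 to 12 for Ndufa4l2 a library. Cox4i2 had 0.0204, 0.0232, 0.0208 and 0.0232 RPKM in BAZ2A_wt and 0.0163, 0.0126, 0.0155 and 0.0111 RPKM in BAZ2A_dTAM, each BAZ2A_dTAM library below each BAZ2A_wt library, and no change was read from so few reads. Cox6b2 and Cox7a1 were the tissue-restricted forms with more than trace levels. Cox6b2 stood at 88.9 ± 5.20 in BAZ2A_wt and 71.7 ± 7.35 in BAZ2A_dTAM, beside 352 ± 12.5 and 327 ± 10.6 for Cox6b1. Cox7a1 stood at 40.3 ± 3.32 in BAZ2A_wt, below 89.2 ± 3.11 for Cox7a2l and 238 ± 8.60 for Cox7a2. Of the genes for subunit c, Atp5g3 at 500.0 ± 20.8 was above Atp5g2 at 84.8 ± 8.46 and Atp5g1 at 23.3 ± 0.535.

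**Figure D4:**
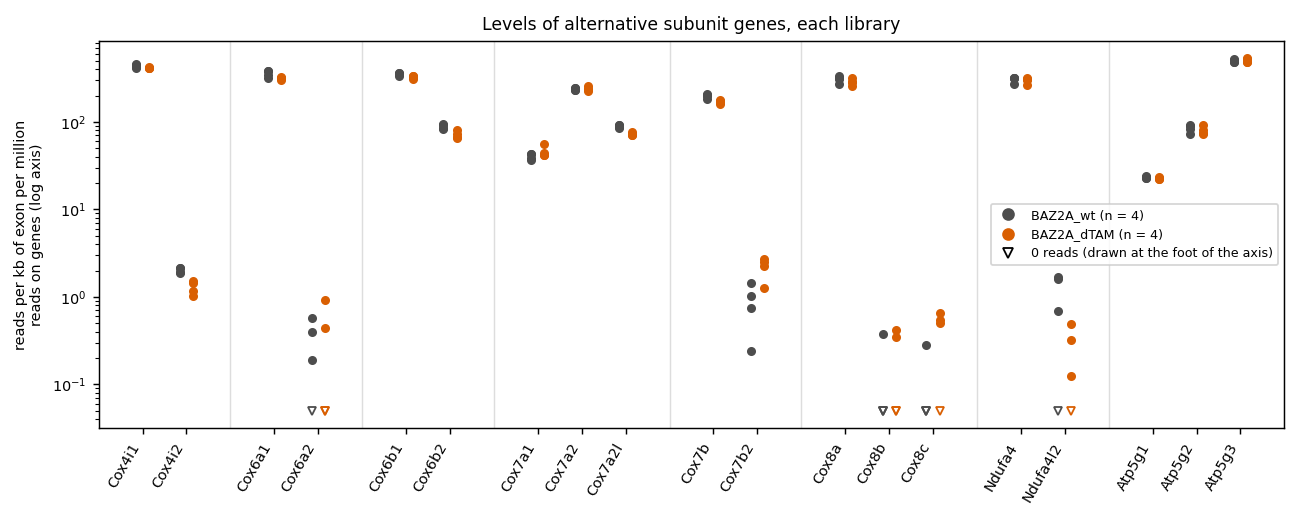
Reads per kilobase of exon scaled to the reads on genes (y axis, log scale) in each of the 4 libraries a group for subunits with alternative genes, with open triangles for libraries with 0 reads. Cox4i2, Cox6a2, Cox7b2, Cox8b, Cox8c and Ndufa4l2 lie near or under 2 while their general forms lie above 100, and Cox6b2 is the restricted form nearest to its general form.

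Most subunit transcripts are short, and the fold changes were set beside those of all genes of like exon length. Under 1 kb, the median log2 fold change was -0.035 over 37 subunit genes and 0.016 over 1257 genes. From 1 to 2 kb it was -0.094 over 29 subunit genes and -0.0087 over 1823 genes, and from 2 to 4 kb -0.069 over 7 and 0.011 over 3208. Of the 29 subunit genes of 1 to 2 kb, 10 were lower (34.5%, against 18.0% of all genes of that length), and of the 37 under 1 kb 5 were (13.5% against 8.04%). All 3 higher genes were under 1 kb, where the share that was higher was 8.11% of the subunit genes and 8.75% of all genes, 2 shares that are close. From 1 to 2 kb none of the 29 was higher, against 17.6% of all genes, and from 2 to 4 kb none of the 7, against 21.8%.

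Other genes of respiration moved in both directions. Of 38 assembly factors tested, which build the complexes and are not part of them, 11 were lower and 3 higher, with a median log2 fold change of -0.094, beside 16.0% lower and 19.9% higher of all genes. Those of complex I held 5 of the 11 in 13 tested: Ndufaf3 (-0.60, adjusted p = 0.00171), Ndufaf7 (-0.30, adjusted p = 0.00307), Ecsit (-0.21, adjusted p = 0.0194), Foxred1 (-0.16, adjusted p = 0.0360) and Timmdc1 (-0.16, adjusted p = 0.00999). Ndufaf3, which works early in the assembly of complex I, had 1.56, 1.55, 1.29 and 1.18 RPKM in BAZ2A_wt and 0.898, 0.902, 0.910 and 0.808 RPKM in BAZ2A_dTAM, so all BAZ2A_dTAM libraries were below all BAZ2A_wt libraries. Bcs1l, which inserts the Rieske protein Uqcrfs1 into complex III, fell by 0.37 on the log2 scale (adjusted p = 0.00510), as did its fellow Uqcc2 (-0.21, adjusted p = 0.0489). Among factors of complex IV, Surf1 (-0.39, adjusted p = 0.0135), Sco1 (-0.27, adjusted p = 0.0201), a copper chaperone, and Lrpprc (-0.12, adjusted p = 0.0377), which stabilises mitochondrial mRNA, were lower. Pet100 (0.34, adjusted p = 0.0352), Coa7 (0.27, adjusted p = 0.020) and Coa4 (0.15, adjusted p = 0.0190) were higher. Tmem70 was the 1 factor of complex V called, at -0.23 (adjusted p = 0.0249), and no factor of complex II was called among 3 tested. With 1 library left out, the calls of Ndufaf3, Ndufaf7, Timmdc1, Bcs1l and Surf1 held in all 8 fits. Those of the others did not: Foxred1 was called only without BAZ2A_wt replicate 1, Lrpprc only without BAZ2A_wt replicate 2, and Uqcc2 only without BAZ2A_wt replicate 4 or BAZ2A_dTAM replicate 1. Pet100 was not called without BAZ2A_wt replicate 1, 3 or 4 or BAZ2A_dTAM replicate 2 or 3, nor Tmem70 without any 1 BAZ2A_wt library or BAZ2A_dTAM replicate 4. Coa7 was not called without BAZ2A_wt replicate 1 or BAZ2A_dTAM replicate 2 or 3, Ecsit without BAZ2A_wt replicate 2 or BAZ2A_dTAM replicate 4, Sco1 without BAZ2A_wt replicate 3 or 4, and Coa4 without BAZ2A_wt replicate 3 or BAZ2A_dTAM replicate 3. With voom Coa4 was not called (adjusted p = 0.200). Calls were also lost without the filter, as for Foxred1 (adjusted p = 0.0715) and Uqcc2 (adjusted p = 0.102).

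Of 12 citric acid cycle genes tested, 6 were lower and 1 was higher, beside 16.0% lower and 19.9% higher of all genes. Dlst, of the 2-oxoglutarate dehydrogenase complex, changed by -0.34 ± 0.033 (SE, adjusted p = 2.76e-04), and its partners Dld and Ogdh by -0.24 and -0.096. Idh3b and Idh3g were also lower (-0.24 and -0.087), and the malate dehydrogenase Mdh2 was higher (0.20, adjusted p = 0.0171). Of 8 regulators of mitochondrial biogenesis tested, 2 were higher, Yy1 (0.40, adjusted p = 1.55e-04) and Pprc1 (0.082, adjusted p = 0.0412), and none was lower. Over all genes, 19.9% were higher and 16.0% lower. Among the 8 fits with 1 library left out, Ogdh was called only without BAZ2A_wt replicate 4 or BAZ2A_dTAM replicate 1, Idh3g only without BAZ2A_wt replicate 4 or BAZ2A_dTAM replicate 4, and Pprc1 only without BAZ2A_dTAM replicate 1. Idh3g was not called with voom (adjusted p = 0.0687). Nrf1 and Gabpa, whose letters were searched above, had estimates of 0.064 (adjusted p = 0.186) and 0.11 (adjusted p = 0.0525). Of 6 subunits outside the naming rule and cytochrome c, only Cycs, cytochrome c itself, was called, at 0.29 (adjusted p = 0.0436). That call was lost without BAZ2A_wt replicate 1, 2 or 4 or BAZ2A_dTAM replicate 2, 3 or 4 (adjusted p up to 0.106) and without the filter (adjusted p = 0.0957). Cyc1, the cytochrome c1 of complex III, was measured at -0.036 (adjusted p = 0.544).

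**Figure D5:**
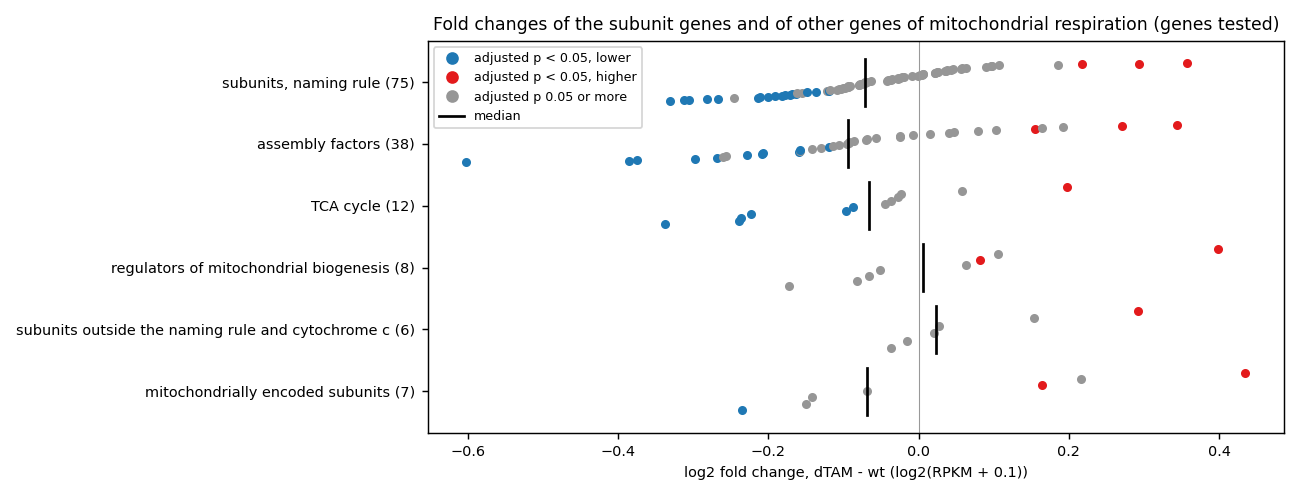
Log2 fold change of BAZ2A_dTAM against BAZ2A_wt (x axis, log2(RPKM + 0.1) scale) of each tested gene of 6 lists (number of genes in brackets), coloured by call, with a line at each median. The medians of the subunit genes (-0.071), the assembly factors (-0.094) and the citric acid cycle (-0.066) lie below 0, and the mitochondrially encoded subunits spread from -0.23 to 0.44.

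The subunits from the mitochondrial genome, which join the nuclear ones in complexes I, III, IV and V, moved apart from each other. Of 13, 7 were tested. mt-Nd1 of complex I was higher, with 466, 451, 452 and 471 RPKM in BAZ2A_wt and 598, 613, 629 and 648 RPKM in BAZ2A_dTAM and a log2 fold change of 0.44 ± 0.028 (SE, adjusted p = 5.17e-05), and mt-Cytb of complex III was higher by 0.16 (adjusted p = 0.0186). mt-Co1, the catalytic subunit of complex IV, was lower at -0.23 (adjusted p = 0.00228). Without the filter mt-Cytb (adjusted p = 0.376) and mt-Co1 (adjusted p = 0.494) were not called, nor was mt-Cytb without BAZ2A_wt replicate 2. mt-Nd3, mt-Nd4l, mt-Co3, mt-Atp6 and mt-Atp8 were listed at 0 in every library and mt-Co2 had at most 1 read, although mt-Co1 had 66699 reads or more, so no level was read from these 6.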

How the data were processed

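RNA-seq libraries of polyA RNA (TruSeq Stranded mRNA) from 4 BAZ2A_wt and 4 BAZ2A_dTAM samples were used, grouped by their titles. The deposited values are RPKM per gene, computed by the authors over the genomic span of each gene. The submitters' processing notes name Trimmomatic 0.36, STAR, DESeq2 and mm10, and whether reads were counted by strand, and how reads mapping to several places were treated, is not given in the sources used here. For symbols listed more than once, 386 further entries were set aside, which left 50902 genes. Whole reads were recovered from the RPKM steps (99.5% of values whole within 0.02 reads), which gave the depths and, with GENCODE vM21 exon lengths, the exon levels (reads per kilobase of exon, scaled like RPKM but to the reads on genes of each library). By these steps the deposited RPKM were scaled to larger totals, of 4.38e+07 to 5.81e+07 a library. Exon levels and RPKM are thus on different scales. 

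The 9002 genes whose mean reached 0.1 RPKM were fitted with limma 3.58.1 (R 4.3.3, lmFit and eBayes with a trend) on log2(RPKM + 0.1), which understates changes of low genes, with Benjamini-Hochberg adjustment and a threshold of 0.05. Genes past the threshold are called. Scripts were tested on simulated data. Alternatives were pseudocounts of 0.01 and 1 RPKM, no filter or one at 1 RPKM, median-ratio and quantile scaling, no trend, a robust fit, the replicate block, each library left out, repeated entries kept, and voom on recovered reads (mean of at least 10 reads, 12660 genes). Named genes were, in each complex, the 3 largest increases and decreases among those called, the core subunits, the isoform families, the highest and lowest exon level and the genes under the filter. Members, lists and rules were chosen with earlier results of these data known. Results of 2 genes of these lists are not reported here.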

Additional observations from a re-analysis of the deposited data

Results flagged for a closer look

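Within the groups of 4 libraries, 162 groups of subunit genes and sums were checked for a library far from the other 3, and 8 were found, as many as chance gives at about 1 in 20 groups. Each was picked because its gap to the nearest library, divided by the group's range, exceeded Dixon's 95% critical value. BAZ2A_wt replicate 4 was low in 4 genes of small subunits: Ndufa3 at 2.28 RPKM (others 2.59 to 2.61), Ndufa4 at 3.49 RPKM (others 4.07 to 4.17), Ndufb3 at 0.516 RPKM (others 0.582 to 0.584) and Uqcr11 at 2.26 RPKM (others 2.73 to 2.82). BAZ2A_dTAM replicate 3 was low in Ndufa13 at 1.47 RPKM (others 1.70 to 1.72) and in Ndufb6 at 0.552 RPKM (others 0.669 to 0.676). BAZ2A_dTAM replicate 2 was high in Uqcr10 at 8.22 RPKM (others 7.42 to 7.53) and in Atp5d at 3.29 RPKM (others 2.85 to 2.92).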

How the results depend on the processing

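The 20 called genes kept their direction in all alternatives run, and the number of calls per complex varied. With a filter at 1 RPKM, complex I had 5 lower calls, complex V 1 higher and 3 lower, and the median log2 fold change of complex II was -0.17. Without a filter, complex II had 1 lower call and complex III 0 higher calls. Of the 20 called genes, 6 were not called without a filter: Ndufa12, Ndufa7, Ndufs8, Sdhb, Uqcrh and Atp5d. With voom, 6 genes of complex IV and 4 of complex V were lower, and 1 gene was past the study's thresholds upwards, as with a pseudocount of 0.01 RPKM. Complex V had 3 lower calls with median-ratio scaling, 2 with quantile normalization and 0 without the trend. The complex II median was -0.073 with a pseudocount of 1 RPKM. Estimates near 0 changed sign for Ndufb6 (3.3e-04, pseudocount of 1 RPKM), Cox7a2 (-0.026, quantile), Atp5a1 (-0.013, median-ratio and quantile) and Atp5g3 (-0.0026, quantile). For these changes the cause was not tested.

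With 1 library left out, lower calls numbered 10 to 21 in all, 5 to 10 in complex I, 1 to 2 in complex II, 0 to 1 in complex III, 3 to 5 in complex IV and 0 to 3 in complex V. Higher calls numbered 2 to 3 in all and 0 to 1 in complex III. The complex V median ran from -0.033 to 0.0023. Of the 55 genes not called, 16 had an estimate that changed sign. Among those named by the rule or singled out for 1 library, these ran from -0.099 to 0.014 for Ndufa4, -0.024 to 0.060 for Ndufb6, -0.025 to 0.077 for Uqcr11, -0.018 to 0.049 for Cox7a2 and -0.015 to 0.026 for Atp5a1.

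The sources used here do not say whether replicate numbers pair the samples, and the values do not settle it. Deviations of same-numbered libraries correlated only weakly, at 0.024 to 0.062, but 3 of 4 numbers, not replicate 3, matched their own number best. With the replicate block, higher calls numbered 1 in all, 0 in complex III and 1 in complex V, and lower calls 6 in complex I, 1 in complex II, 7 in complex IV and 2 in complex V. Of the 20 called genes, 13 were also called with the block and 7 were not: Ndufa12, Ndufa7, Ndufc2, Ndufv1, Sdhb, Uqcrh and Atp5l. Called lower with the block but not without it were Cox5b (adjusted p = 0.0328), Cox6a1 (adjusted p = 0.0409), Cox6b1 (adjusted p = 0.0470), Cox8a (adjusted p = 0.0489) and Atp5b (adjusted p = 0.0422). The depth of 6585593 to 8696304 reads on genes limits genes of few reads, such as Atp5l.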
